A study of Mus musculus with 20 samples.

Results

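The cytosolic ribosomal proteins are the protein parts of the ribosome that translates messages in the cytoplasm. Their genes were taken by symbol: Rpl or Rps followed by a number and at most an a or x, the stalk genes Rplp0, Rplp1 and Rplp2, and Rpsa, each with at least 1 FPKM (fragments per kilobase of gene, scaled to the mapped fragments of the library) in 5 or more libraries. All 76 matching symbols met the level requirement, so 76 genes were described, 46 of the large subunit and 30 of the small subunit, among 11794 tested genes and 45777 symbols in the table. The rule left out some genes, among them Rps3a1, the fusion gene Fau, and Rack1, which also encode ribosome components and are described separately. The RNA came from CD8+ T cells taken out of tumours on day 4 after treatment; the tumours grew from MC38 cells, derived from a mouse colon cancer, that carried an excess of human PD-L1. The 20 libraries formed 4 groups of 5: the Combination of ABL503 and pembrolizumab, ABL503 alone, Pembrolizumab alone, and Control. All mice were C57BL/6 with hPD-1, hPD-L1 and h4-1BB, the human forms of the antibody targets, and were randomised at a mean tumour volume of 150 to 200 mm3. Pembrolizumab blocks PD-1, and ABL503 is a bispecific antibody against PD-L1 and 4-1BB. Whether each library stands for its own mouse and what Control mice received is not stated in the labels, and p-values therefore cover only the variation among these libraries, which may be technical.

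A ribosome holds a single copy of nearly every ribosomal protein, the stalk proteins P1 and P2 aside, and the proteins are made in step with ribosomal RNA. In mammals the messages of ribosomal proteins begin with a run of pyrimidines next to the cap, called a TOP motif, through which mTOR signalling controls their translation as a group. T cells enlarge their translation machinery when they are activated, and resting naive or memory T cells keep a large share of their message pool in ribosomal protein genes.

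CD8 T-cell identity was plain in the RNA. All 7 CD8 T-cell markers, Cd8a and Cd3e among them, had medians over 20 libraries of 247 FPKM or more. Sequencing depth is unknown, and summed FPKM ran from 575918 to 654333 per library. Genes of antigen-presenting and myeloid cells differed between the groups. Their 18 markers summed to 120.3 to 171 FPKM in Combination libraries, 232 to 397 in ABL503 libraries, 122 to 271 in Pembrolizumab libraries and 248 to 668 in Control libraries. The macrophage markers C1qa and Adgre1 were at 0 in 16 and 15 of the 20 libraries, and C1qb in 10. Others of the list, C1qc, Apoe, Lyz2 and Fcgr3, were at 0 in only 2, 1, 1 and 1. Their highest values were 3.72, 18.8, 64.9 and 8.21 FPKM. Cd74, the class II invariant chain, was above 0 in all, and 9 of the 18 markers had a median under 1 FPKM. Of that list 12 were tested, and 4 passed in Combination against Control, all lower. The 6 B-cell markers summed to 22.2 ± 4.91 FPKM in the Combination, 46.6 ± 10.6 with ABL503, 32.6 ± 7.85 with Pembrolizumab and 54.0 ± 22.8 in Control (SD, n = 5 each), and 1 of 2 tested passed as lower. The 6 tumour and epithelium markers summed to 5.29 ± 1.61 FPKM in the Combination, 9.55 ± 2.07 with ABL503, 7.85 ± 2.59 with Pembrolizumab and 10.02 ± 2.11 in Control, and 1 of 3 tested passed as lower. Of these, Krt8, Krt19 and Cldn4 were at 0 in 13, 18 and 14 of the 20 libraries. The sums came mostly from Epcam, Cdh1 and Krt18, and do not by themselves show tumour cells in the libraries. Of the 3 tested, 2 had a log2 change below 0 in Combination against Control. Krt18 did not, at 1.06 ± 0.47 FPKM in the Combination and 0.92 ± 0.81 in Control. The part of these other cells in the results below was not tested. A covariate was fitted for the antigen-presenting list only, and it cannot separate these cells from treatment. In bulk RNA, fewer cells of a type and less RNA per cell cannot be told apart.

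Ribosomal protein genes were among the most abundant messages of these cells. They filled 27 of the 100 highest places among tested genes by mean FPKM and 70 of the 500 highest, and the lowest value of any of the 76 genes in any library was 29.8 FPKM. Their mean levels still spanned 72.0-fold. Rpl13 and Rpl32 of the large subunit averaged 2896 and 2043 FPKM over 20 libraries, and Rps18 and Rps19 of the small subunit 2297 and 2249.6 FPKM. At the low end stood Rpl22, at 40.2 FPKM, followed by Rps15a at 79.0, Rps20 at 109 and Rps21 at 136 FPKM. The median gene had 661 FPKM in the large subunit and 799 FPKM in the small subunit. Rps15a is a gene for which reads could be split with copies: the 4 named pseudogenes of Rps15a in the table carried 10.6% of its level. Named pseudogenes carried at most 36.8% of a member's level, for Rpl15, and none of the 7 genes that passed in Combination against Control had more than 5.75%, for Rps16.

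Together the 76 genes took a smaller share of all FPKM in the Combination than in Control, by means, while the ratio of the large to the small subunit stayed within 1.35 to 1.41. The share was 9.08%, 9.44%, 9.60%, 10.1% and 10.004% in the 5 Combination libraries. It was 11.5%, 11.5%, 10.1%, 10.5% and 10.3% in ABL503 libraries, and 12.4%, 12.9%, 9.66%, 10.9% and 11.1% in Pembrolizumab libraries. Control libraries had 14.8%, 11.4%, 12.2%, 11.1% and 9.65%. The Combination libraries were the most alike and the Control libraries the most spread: 4 Control libraries lay above all Combination libraries, and Control 5 lay among them. The group means were 9.64 ± 0.41% in the Combination, 10.8 ± 0.68% with ABL503, 11.4 ± 1.29% with Pembrolizumab and 11.8 ± 1.89% in Control (SD, n = 5 each, as for every mean below). The summed FPKM of the large subunit over that of the small subunit was 1.37 ± 0.011 in the Combination, 1.38 ± 0.019 with ABL503, 1.39 ± 0.022 with Pembrolizumab and 1.37 ± 0.017 in Control. The ranges of this ratio overlapped in all 4 groups.

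**Figure D1:**
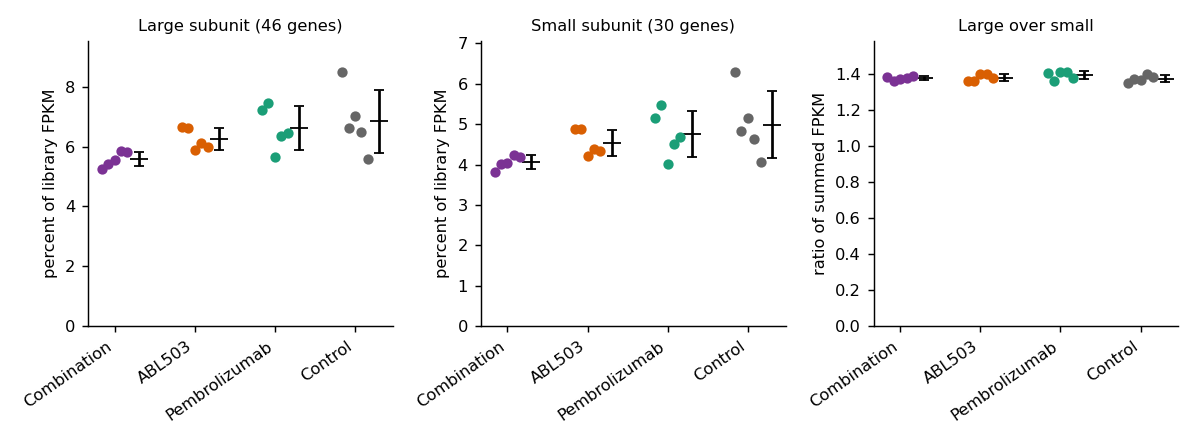
Percent of each library's summed FPKM from the 46 large subunit genes and the 30 small subunit genes, and the ratio of the summed FPKM of the large to the small subunit (vertical axes), for each library by treatment group (points; bars are the mean and SD of 5 libraries). The Combination libraries sit between 5.27% and 5.84% for the large subunit while Control libraries run from 5.60% to 8.49%, and the ratio stays between 1.35 and 1.41.

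The comparison of the Combination with Control asked what both antibodies together did to these genes. Changes are differences of group means of log2(FPKM + 1), tested with limma across all 11794 tested genes with Benjamini-Hochberg adjustment, and a gene passed at an adjusted p under 0.05. All 76 genes had a log2 change below 0, against 54.2% of all tested genes, and after centring each library on its median 74 did, with Rpl7 and Rpl24 above 0. With Control 1 and ABL503 3 left out 73 did, and 72 with a covariate for antigen-presenting markers. In all 7 passed, 5 of the large subunit and 2 of the small subunit, all lower, which is to be read against 6.24% of all tested genes passing as lower. At an unadjusted p under 0.05, 30 of the 76 were lower and 0 higher, against 14.7% lower among all tested genes. The median log2 change was -0.23 for the large subunit and -0.24 for the small subunit, against -0.04 over all tested genes. The counts and medians of both subunits were thus close, and no test was run between them.

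**Figure D2:**
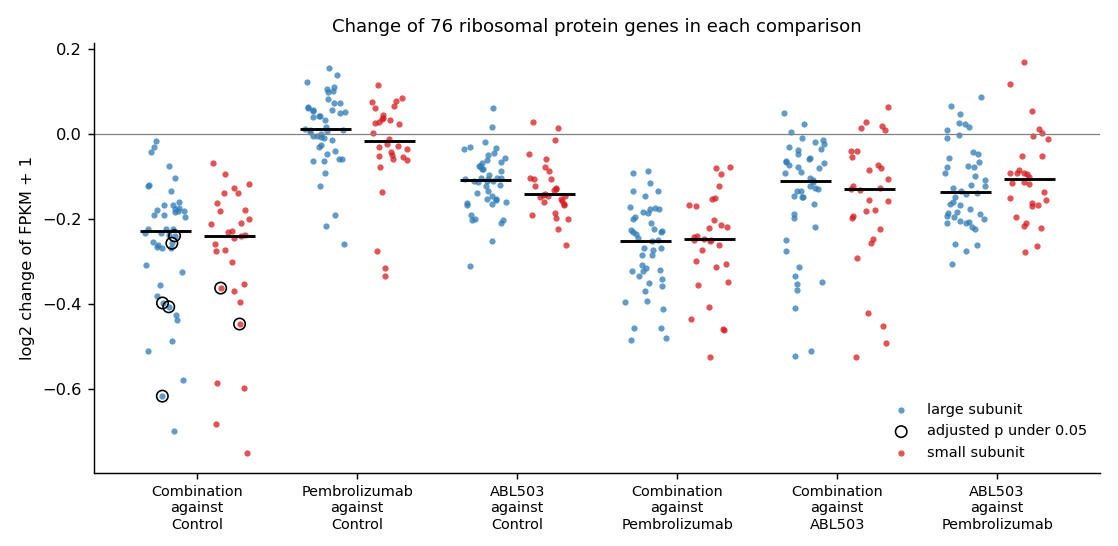
Log2 change of FPKM + 1 (vertical axis) of the 76 ribosomal protein genes in each of 6 comparisons (horizontal axis), large subunit left and small subunit right in each pair; points are genes, horizontal lines medians and open circles genes with an adjusted p under 0.05 by limma. Every gene lies below 0 in Combination against Control, 74 of the 76 after centring each library on its median, and the large and small subunit medians of that comparison are -0.23 and -0.24.

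The 3 genes with the smallest p values were all of the large subunit, and their groups did not overlap. Rpl13a encodes a large subunit protein that in human cells is also known for a role away from the ribosome, in the interferon-gamma-activated inhibitor of translation complex. Its gene lies at chr7:45125563-45128745 (GRCm38, RefSeq annotation). The FPKM values of Rpl13a follow. It had 769, 699.5, 799, 811 and 723 FPKM in Combination libraries, 916, 844, 749, 769 and 768 in ABL503 libraries, 963, 905, 879.7, 1235 and 1041 in Pembrolizumab libraries, and 1009, 1091, 932, 1017 and 959 in Control libraries. All 5 Combination values and all 5 ABL503 values lay below all 5 Control values. The log2 change was -0.40 in the Combination against Control (SE 0.09, limma adjusted p = 0.0060). It passed without any 1 of the 20 libraries and under every other alternative run.

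Rplp1, at chr9:61913283-61914510, encodes the acidic protein P1 of the ribosomal stalk, which recruits elongation factors to the ribosome. It had 756, 917, 842, 778 and 797 FPKM in Combination libraries, against 1667, 1133, 1380.2, 1239.8 and 954 FPKM in Control libraries. The groups did not overlap, although Control 5 stood only just above the highest Combination library. The log2 change was -0.62 (SE 0.15, limma adjusted p = 0.011). The single agents lay between, at 1064 ± 168 FPKM with ABL503 and 1066 ± 232 with Pembrolizumab. The other stalk genes did not pass: Rplp2, the partner of P1, had a log2 change of -0.43 (SE 0.19, limma adjusted p = 0.14) and Rplp0, which anchors the stalk to the ribosome, one of -0.17 (SE 0.10, limma adjusted p = 0.25).

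Rpl12, at chr2:32961712-32964045, encodes the protein at the base of the same stalk. It had 542, 497, 581, 566 and 500.5 FPKM in Combination libraries, against 880.1, 729, 692, 687 and 597 FPKM in Control libraries. All Combination values lay below all Control values, with Control 5 again the lowest of its group. The log2 change was -0.41 (SE 0.10, limma adjusted p = 0.015). In all 5 genes had Combination libraries below every Control library, against 4.43% of tested genes. Rpl21 was among them and did not pass (limma adjusted p = 0.092).

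The other 4 genes that passed had overlapping groups. Rps16, a protein of the small subunit head that reaches towards the decoding site, had 784, 894, 889, 931 and 796 FPKM in Combination libraries, against 1347, 1110.3, 1151, 1035 and 914 in Control libraries (log2 change -0.36, SE 0.10, limma adjusted p = 0.025). Rps24, needed for maturation of the small subunit and mutated in human Diamond-Blackfan anaemia, had 277, 221, 277, 318 and 377 FPKM in Combination libraries, against 449.8, 385, 418, 364 and 365 in Control libraries (log2 change -0.45, SE 0.13, limma adjusted p = 0.031). In both, 1 Combination library reached into the Control range, Combination 4 for Rps16 and Combination 5 for Rps24. Rpl8, which lies near the peptidyl transferase centre, had 905, 749, 886, 895 and 810.2 FPKM in Combination libraries, against 1187, 1079, 967, 958 and 896 in Control libraries (log2 change -0.26, SE 0.08, limma adjusted p = 0.042). Rpl6, a large subunit protein, averaged 533 ± 39.4 FPKM in the Combination and 631 ± 66.4 in Control (log2 change -0.24, SE 0.08, limma adjusted p = 0.046).

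These 4 calls depended on single libraries. With 1 library left out at a time, the number of genes that passed ran from 3, without Control 1, to 15, without Control 5, and was 4 without Combination 1 or Combination 2. Control 1 had the highest share of ribosomal protein FPKM of all libraries and Control 5 the lowest of its group. Rpl13a, Rplp1 and Rpl12 passed in all 20 such fits. Rps16 did not pass in 4 of them (without Control 1 or 3 or Combination 1 or 5), Rps24 in 6 (without Control 1, 2 or 3 or Combination 1, 2 or 3), Rpl8 in 7 (without Control 1, 2 or 3, Combination 2 or 5, ABL503 4 or Pembrolizumab 5) and Rpl6 in 14 (all but those without Control 3 or 5, Combination 4, ABL503 3 or Pembrolizumab 3 or 4). Scaling also moved the count: 3 passed after median centring, 17 after scaling libraries to equal sums and 23 after quantile normalization, all lower. Scaling and leaving out a library act on all genes, and the share of all tested genes passing in each such fit is not given. These counts therefore describe the dependence on libraries and on scaling only.

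**Figure D3:**
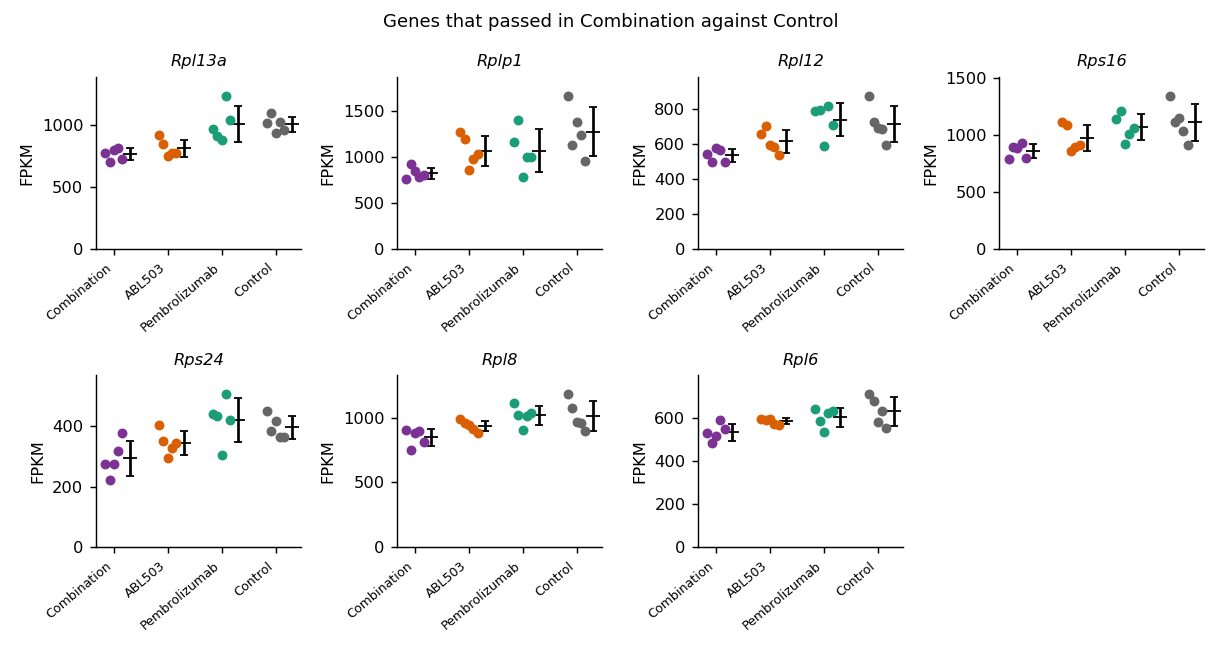
FPKM (vertical axes, from 0) of the 7 genes that passed in Combination against Control, for each library by treatment group (points; bars are the mean and SD of 5 libraries). For Rpl13a, Rplp1 and Rpl12 all Combination points lie below all Control points; for Rps16, Rps24, Rpl8 and Rpl6 the groups overlap.

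Most members hold a pyrimidine run within 50 bases of an annotated start. The RefSeq promoter table of GRCm38.p6 held 56 of the 76 genes, 34 of the large and 22 of the small subunit. An unbroken run of at least 8 letters C or T on the gene's own strand, within 50 bases before to 50 bases after the annotated start, was found in 48 of 56 members (85.7%), against 39.3% of all 27025 genes of the table and 36.8% of the tested genes in it. For a gene with several annotated starts, the start with the longest run was taken, which raises these shares. The 56 members had 66 starts, and the 27025 genes had 32851. The share was 91.2% in the large and 77.3% in the small subunit. The run could lie anywhere in that window: at bases 41 to 50 from the start in Rpl10 and -50 to -37 in Rpl26. The shares thus count runs near a start, and not TOP motifs next to the cap. The starts of 5 genes are shown to let the run be read: Rpl13a as the gene that passed in every fit, Rps27 and Rpl38 as short genes with log2 changes of -0.75 and -0.58 in Combination against Control, and Rps6 and Rps18 as genes that did not pass. Each is 20 bases before and 30 bases from the start on, 5′ to 3′ on the gene's strand, with the longest run in capitals. In that order they lie at chr7:45128716-45128765 (minus strand), chr3:90213619-90213668 (minus), chr11:114668560-114668609 (plus), chr4:86857338-86857387 (minus) and chr17:33955636-33955685 (minus).
Rpl13a: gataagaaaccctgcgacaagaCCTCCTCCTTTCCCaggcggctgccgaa
Rps27: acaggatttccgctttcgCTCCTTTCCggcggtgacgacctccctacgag
Rpl38: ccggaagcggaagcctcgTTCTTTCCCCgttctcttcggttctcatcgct
Rps6: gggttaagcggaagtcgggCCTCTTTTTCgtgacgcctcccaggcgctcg
Rps18: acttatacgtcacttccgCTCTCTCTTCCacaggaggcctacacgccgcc
The run spans the annotated start in Rps27, Rpl38, Rps6 and Rps18 and begins at base 3 after it in Rpl13a. These 5 windows do not stand for all members. In Rpl12, Rpl6, Rps16 and Rps24, which also passed, the longest run lay further off. It was at bases 40 to 47, 32 to 42, -47 to -39 and -37 to -19 in that order. Rps27, with a log2 change of -0.75, and Rps6, with -0.20, both hold the run, which describes the letters of these windows and not the use of the start in these cells.

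The other 69 genes did not pass, among them several with known roles beyond the ribosome. Rpl5 and Rpl11, which with 5S RNA bind and inhibit Mdm2, had log2 changes of -0.10 and -0.18 (limma adjusted p = 0.39 and 0.17). Rps6, the target of S6 kinase below mTOR, averaged 988 ± 74.4 FPKM in the Combination and 1137 ± 105 in Control (log2 change -0.20, limma adjusted p = 0.094). Rps4x, a small subunit protein encoded on the X chromosome, was just outside the threshold, at 804 ± 69.4 FPKM in the Combination and 953 ± 86.6 in Control (log2 change -0.24, limma adjusted p = 0.0502). Rpsa, also known as the laminin receptor, and Rps3, at the entry of the message channel, had -0.14 and -0.12 (limma adjusted p = 0.36 and 0.31). Rpl3 and Rpl10, the second of which joins the large subunit late in its maturation, had -0.18 and -0.12 (limma adjusted p = 0.27 and 0.32). Rps10 and Rps19, both mutated in human Diamond-Blackfan anaemia, had -0.18 and -0.30 (limma adjusted p = 0.18 and 0.12), and Rps27a, made as a fusion with ubiquitin, -0.16 (limma adjusted p = 0.33). Rpl22, needed in mouse for alpha-beta T-cell development, had -0.08 (limma adjusted p = 0.80), which lay above 0 without Control 1 and with the covariate for antigen-presenting markers, and Rpl39, a protein of the exit tunnel, -0.25 (limma adjusted p = 0.62), above 0 with that covariate.

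With Pembrolizumab alone no ribosomal protein gene passed the test against Control. Of the 76, 0 passed by limma, against 5.55% of all tested genes, and 0 had an unadjusted p under 0.05, against 20.2% of all tested genes. Changes lay on both sides of 0, 42 above and 34 below, where 54.5% of all tested genes were below, with medians of 0.01 for the large subunit and -0.02 for the small subunit. The split was not stable: 14 were below 0 with Control 1 and ABL503 3 left out, and 23 after median centring or with the antigen-presenting covariate. With equal sums 53 were below 0, and with quantile normalization 59 were. A covariate for the level of short genes other than cytosolic ribosomal protein genes (the short-gene covariate) also gave 59. With 1 library left out the large subunit median ran from -0.05, without Control 5, to 0.10, without Pembrolizumab 3, and the small subunit median from -0.07, without Pembrolizumab 2, to 0.06, without Pembrolizumab 3 or Control 1. The smallest p belonged to Rplp1 (log2 change -0.26, SE 0.15, limma adjusted p = 0.35). Rpl24, a late-joining large subunit protein, followed with 0.16 (SE 0.10, limma adjusted p = 0.42), then Rpl7a with 0.11 (limma adjusted p = 0.47). The sign was not stable for Rpl24 and Rpl7a: quantile normalization put Rpl7a below 0, and the short-gene covariate put Rpl24 below 0.

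With ABL503 alone, 0 of 76 genes passed by limma, against 0.619% of all tested genes, and 4 had an unadjusted p under 0.05, all lower, against 4.79% lower among all tested genes. In this comparison 72 of 76 changes were below 0, against 51.4% of all tested genes, with medians of -0.11 for the large subunit and -0.14 for the small subunit. These values rested on few libraries: with Control 1 and ABL503 3 left out 41 changes were below 0, and the medians were -0.0037 and -0.0089. With 1 library left out the large subunit median ran from -0.18, without ABL503 1, to -0.05, without Control 1, and the small subunit median from -0.20, without Control 5, to -0.06, without Control 1. Rpl13a led, with ABL503 libraries all below Control libraries (log2 change -0.31, SE 0.09, limma adjusted p = 0.14); it was the 1 member without overlap, against 0.89% of tested genes. Rpl29, Rps7 and Rps10 had log2 changes of -0.20, -0.22 and -0.20 (limma adjusted p = 0.35, 0.37 and 0.39). Both single-agent comparisons and the Combination comparison share the Control libraries.

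The Combination was also set against each antibody alone. Against Pembrolizumab all 76 changes were below 0, against 49.4% of all tested genes, under each scaling tried, and 66 were with the covariate for other short genes, although 0 passed by limma, where 0.161% of all tested genes did. At an unadjusted p under 0.05, 32 were lower and 0 higher, against 5.99% lower among all tested genes, and the medians were -0.25 in both subunits, -0.13 and -0.11 with that covariate. Rpl13a and Rpl12 had the smallest p values, with log2 changes of -0.39 (SE 0.09, limma adjusted p = 0.059) and -0.46 (SE 0.10, limma adjusted p = 0.067), and with Rpl8 they were the 3 genes whose Combination libraries all lay below the Pembrolizumab libraries, against 1.17% of tested genes. For Rpl12 the Combination libraries listed above were set against 792, 795, 593, 821 and 708 FPKM with Pembrolizumab, where Pembrolizumab 3 stood only just above the highest Combination library. Rps24 followed with -0.52 (limma adjusted p = 0.096). Without Pembrolizumab 3, 4 genes passed, and without Pembrolizumab 2 or Control 1, 1 gene did. The share of all tested genes passing in these fits is not given.

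Against ABL503 alone, 0 of 76 passed by limma, where 4.53% of all tested genes did, 3 had an unadjusted p under 0.05, all lower, against 10.8% lower among all tested genes, and 68 changes were below 0 (59 after median centring), against 53.7% of all tested genes, with medians of -0.11 and -0.13 for the large and small subunits. With 1 library left out the large subunit median ran from -0.14, without ABL503 3, to -0.05, without ABL503 1, and the small subunit median from -0.19 to -0.10 without the same libraries. The 3 genes at an unadjusted p under 0.05 were Rplp1, Rpl5 and Rpl36 (log2 changes -0.37, -0.16 and -0.51, limma adjusted p = 0.16, 0.23 and 0.24). ABL503 against Pembrolizumab gave 0 passing genes by limma, against 1.28% of all tested genes. In that comparison 14 of the 76 had an unadjusted p under 0.05, all lower with ABL503, against 5.48% lower among all tested genes. Changes were below 0 for 64 genes (51 with quantile normalization, 42 with the short-gene covariate), against 46.1% of all tested genes, with medians of -0.14 and -0.11 for the large and small subunits. These medians were -0.03 and -0.01 with the short-gene covariate, and ran from -0.22 to -0.08 and from -0.18 to -0.06 with 1 library left out, in each case without Pembrolizumab 3 and without Pembrolizumab 2. Rpl13a was at 809 ± 70 FPKM with ABL503 and 1005 ± 143 with Pembrolizumab (log2 change -0.31, limma adjusted p = 0.093). Rpl29, at 562 ± 38.1 FPKM with ABL503 and 674 ± 63.2 with Pembrolizumab, was the 1 gene without overlap, against 1.18% of tested genes (log2 change -0.26, limma adjusted p = 0.13).

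The interaction asked whether pembrolizumab changed these genes differently with ABL503 than without it. By limma 0 of 76 passed, against 0.203% of all tested genes, and 1 had an unadjusted p under 0.05, against 10.3% of all tested genes. The interaction was below 0 for 72 genes, against 49.7% of all tested genes, and its median was -0.14 for the large subunit and -0.11 for the small subunit. With a covariate for the level of other short genes these medians were 0.04 and 0.04, and 29 genes were below 0. With 1 library left out the medians ran from -0.20, without Pembrolizumab 3, to -0.07, without Control 5 (large subunit), and from -0.19, without Control 1, to -0.03, without Control 5 (small subunit).

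Apart from Rplp1, the genes with the most negative changes did not pass, and they were short. Rps27, a zinc-binding small subunit protein of 252 coding bases, had the most negative change in Combination against Control. It had 603, 886, 785, 737 and 1479 FPKM in Combination libraries, against 2437, 1044, 1777, 1419 and 968 FPKM in Control libraries. The groups overlapped widely through Combination 5 and Control 5 (log2 change -0.75, SE 0.28, limma adjusted p = 0.079). Rpl36, with 315 coding bases, had 561 ± 134 FPKM in the Combination and 931 ± 308 in Control (log2 change -0.70, SE 0.24, limma adjusted p = 0.059). Rps29, Rps28, Rpl38 and Rpl37a, of 168 to 276 coding bases, varied most between libraries of a group, with SDs of 0.60, 0.58, 0.58 and 0.55 on the log2 scale and log2 changes of -0.68, -0.60, -0.58 and -0.49 that did not pass (limma adjusted p = 0.20, 0.24, 0.25 and 0.32). Rpl7, Rps3, Rpl5 and Rpl7a, of 729 to 891 coding bases, varied least, with SDs of 0.09, 0.10, 0.11 and 0.11.

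Over all 76 genes, coding length ran with both the change and the spread. The 19 shortest genes, of 75 to 369 coding bases, had a median log2 change of -0.44 in Combination against Control and a median SD within groups of 0.44. The next groups of 19 had -0.27 and -0.18, and the 19 longest, of 612 to 1257 coding bases, -0.17 with a median SD of 0.12. Across genes, which are not independent replicates, Spearman's rho with coding length was 0.67 for the log2 change (Pearson's r 0.57, 76 genes) and -0.90 for the SD within groups (r -0.71); all genes share the same libraries. Within groups the shortest genes went up and down together, with a median r of 0.94 over pairs of the 19 shortest and 0.30 between the 19 shortest and the 19 longest, over 20 libraries after removing group means. All pairs of members had a median r of 0.60.

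The length pattern differed between libraries of the Combination. The median log2 level of the 19 shortest minus that of the 19 longest was -1.63, -0.68, -1.48, -1.52 and -0.77 in Combination libraries. It averaged -1.22 ± 0.45 in the Combination, -0.88 ± 0.29 with ABL503, -0.88 ± 0.41 with Pembrolizumab and -0.88 ± 0.27 in Control. Combination 1, 3 and 4 were below every other library, and Combination 2 and 5 were within the Control range. Other short genes were 243 tested genes with coding lengths of at most 369 bases and levels of at least 40.2 FPKM. Cytosolic ribosomal protein genes were left out of them, and mitochondrial ribosomal protein genes were not. These 243 genes had a median log2 change of 0.05 in Combination against Control and -0.10 in Combination against Pembrolizumab. The 728 genes of 612 to 1257 bases had 0.06 and 0.09. In Pembrolizumab against Control the short genes had a median of 0.13 and the long genes one of -0.03. Their short-minus-long level, used as a covariate, averaged 0.55 ± 0.14 in the Combination, 0.57 ± 0.23 with ABL503, 0.77 ± 0.11 with Pembrolizumab and 0.53 ± 0.08 in Control, so that it was highest in 1 treatment group and cannot be told apart from that treatment in fits against Pembrolizumab. With this covariate, a fit chosen after seeing the data, 16 ribosomal protein genes passed in Combination against Control, the 7 among them. The share of all tested genes passing in that fit is not given. The part that library preparation or fragment length plays in the length pattern was not tested.

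**Figure D4:**
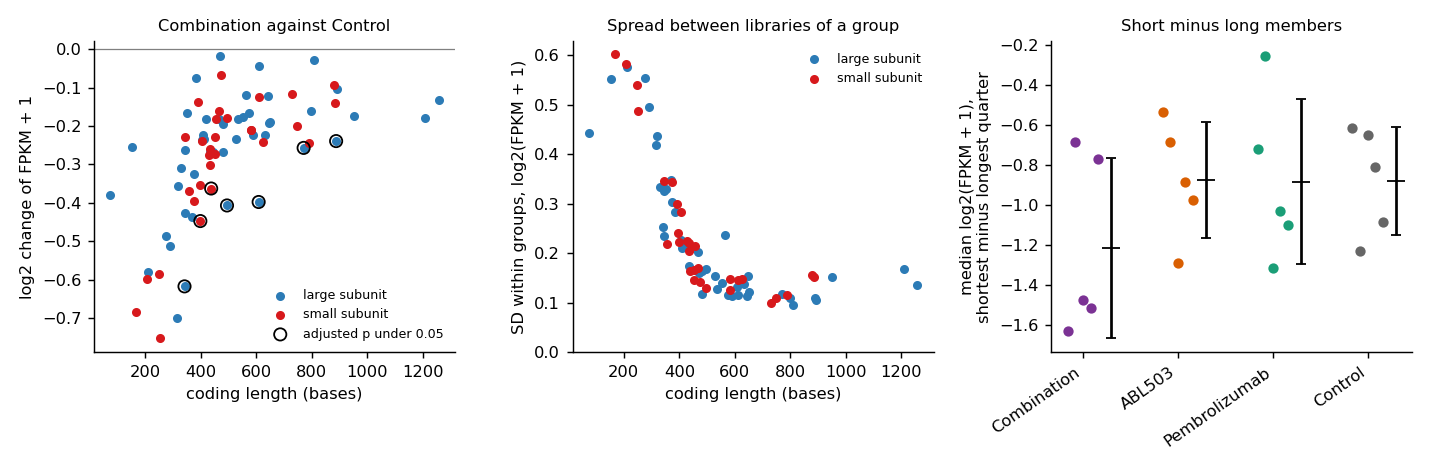
Left and middle: log2 change in Combination against Control and SD within groups on the log2(FPKM + 1) scale (vertical axes) against coding length in bases (horizontal axis), 1 point per gene, with circles on genes with an adjusted p under 0.05. Right: median log2(FPKM + 1) of the 19 shortest minus that of the 19 longest genes per library, with the mean and SD of 5 libraries; the shortest genes spread most, with a median SD of 0.44, and Combination 1, 3 and 4 lie lowest, at -1.63, -1.48 and -1.52.

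Markers of T-cell states also differed between the groups. The 12 naive and memory markers, among them Tcf7 and Il7r, summed to 298 ± 78.3 FPKM in the Combination, 514 ± 69 with ABL503, 356 ± 32.6 with Pembrolizumab and 577 ± 156 in Control, and 9 of 12 passed as lower in Combination against Control. The 10 effector markers, among them Gzmb and Prf1, summed to 6626 ± 869 FPKM in the Combination, 5254 ± 132 with ABL503, 7463 ± 552 with Pembrolizumab and 4139 ± 751 in Control, and 4 of 10 passed as higher and 1, Tbx21, as lower in Combination against Control. In Pembrolizumab against Control, where 0 ribosomal protein genes passed by limma and 0 had an unadjusted p under 0.05, 4 of 12 naive and memory markers passed as lower and 6 of 10 effector markers as higher. The part of these states in the change of ribosomal protein genes was not tested. The antigen-presenting covariate was the mean log2(FPKM + 1) of the 18 markers, and not their summed FPKM. With it, only Rpl13a among the 76 passed in Combination against Control (log2 change -0.43, limma adjusted p = 0.040). The summed markers did not overlap there, at 120.3 to 171 FPKM in Combination and 248 to 668 in Control libraries. The covariate therefore cannot be told apart from treatment in that comparison, and calls lost with it do not show a part of other cells. The medians were then -0.18 and -0.20 for the large and small subunits.

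Genes around the ribosome moved less evenly in Combination against Control, where 12.6% of all tested genes passed in either direction. Of 9 tested ribosomal protein genes outside the symbol rule 0 passed by limma, with a median log2 change of -0.18. Rps3a1, Fau and Rack1 had -0.18, -0.22 and -0.14 (limma adjusted p = 0.15, 0.21 and 0.24). Of 20 translation factor and related genes with TOP messages 1 passed, lower, with a list median of -0.13. That was Gas5, a non-coding host of small nucleolar RNAs, at 359 ± 41.1 FPKM in the Combination and 471 ± 59.5 in Control (log2 change -0.39, SE 0.12, limma adjusted p = 0.037); the call was lost in 5 of 20 fits that left out 1 library (Control 1, 2 or 3, Combination 1 or 2).

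Of 39 tested ribosome biogenesis genes 5 passed, all lower, with a list median of -0.14. Riok1, a kinase of late small subunit maturation, averaged 39.7 ± 4.79 FPKM in the Combination and 58.7 ± 7.67 in Control (log2 change -0.55, SE 0.10, limma adjusted p = 0.0010). Polr1c, a subunit shared by RNA polymerases I and III, averaged 84.6 ± 6.13 and Nop56, a core protein of box C/D small nucleolar particles, 113 ± 12.2 FPKM in the Combination, against 112 ± 12.8 and 140.4 ± 10.2 FPKM in Control (log2 changes -0.40 and -0.31, limma adjusted p = 0.0095 and 0.027). The Polr1c call was lost with the antigen-presenting covariate (limma adjusted p = 0.078), and the Nop56 call without Control 1, 2 or 4 or Combination 4 or 5. Of 19 tested genes of mTOR and translation control 1 passed, higher, with a list median of -0.17. It was Eif4ebp1, the repressor of cap-dependent translation 4E-BP1, at 60.2 ± 9.34 FPKM in the Combination, 40.2 ± 8.64 with ABL503, 61.4 ± 10.4 with Pembrolizumab and 25.4 ± 5.96 in Control (log2 change in Combination against Control 1.23, SE 0.17, limma adjusted p = 0.00012).

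Mitochondrial ribosomal proteins, which build the separate ribosome of mitochondria, passed more often as higher than as lower. Of 78 tested, 10 passed as higher and 3 as lower in Combination against Control, against 6.34% higher and 6.24% lower among all tested genes, with a list median of 0.13 and 24 of 78 below 0. Mrps15 averaged 70.9 ± 5.57 FPKM in the Combination and 50.6 ± 6.17 in Control (log2 change 0.48, SE 0.09, limma adjusted p = 0.0021), and Mrpl45 17.8 ± 1.76 and 11.1 ± 2.39 (log2 change 0.65, SE 0.14, limma adjusted p = 0.0041). The Mrpl45 call was lost with the antigen-presenting covariate (limma adjusted p = 0.090). Of 11 chaperones of ribosomal proteins 1 passed, Bccip, higher (log2 change 0.27, limma adjusted p = 0.049).

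**Figure D5:**
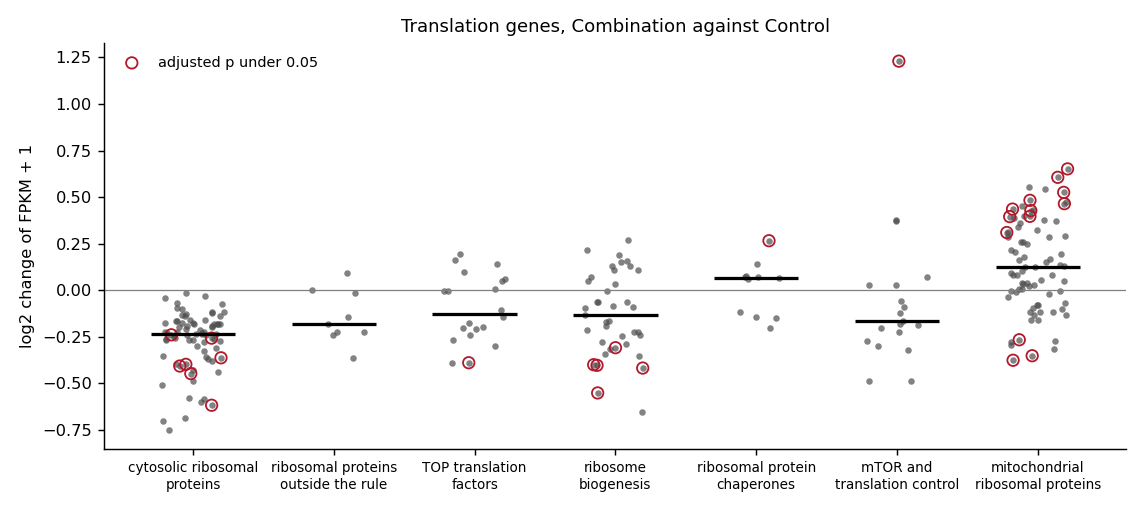
Log2 change of FPKM + 1 in Combination against Control (vertical axis) for the 76 cytosolic ribosomal protein genes and 6 lists around them (horizontal axis); points are genes, lines medians and circles genes with an adjusted p under 0.05 by limma. Mitochondrial ribosomal proteins have a median of 0.13 with 10 genes passing as higher and 3 as lower, and Eif4ebp1 stands alone at 1.23.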

How the data were processed

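RNA of sorted CD8+ T cells was prepared with the SMART-Seq v4 Ultra Low Input kit, which copies full-length messages without marking strand, per the labels' protocols. The submitters' processing notes name HISAT2 and StringTie and the builds GRCm38 and mm10. The authors deposited 1 table of FPKM values for 45777 gene symbols and 20 libraries; the unit was taken from the values and the tools named, and depth and counting error are unknown.

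From it, 11794 genes reaching 1 FPKM in 5 or more libraries were tested. log2(FPKM + 1) was fitted with limma 3.58.1 in R 4.3.3, with 1 mean per group, 16 residual degrees of freedom, a variance trend and two-sided tests, adjusted by Benjamini-Hochberg within each of 7 comparisons; all 20 libraries entered each fit. Adding 1 understates changes of low genes. A library that is left out is dropped from the fit, and no value was imputed. Alternatives were another pseudocount, no filter, other scalings, library weights, marker and short-gene covariates, and leaving out libraries. The script was checked on simulated data. Members and lists were chosen with earlier results of these data known. Named were members with the smallest p per comparison (6 in Combination against Control, 4 elsewhere), extremes of level and spread, and members with known separate roles. Coding lengths came from GENCODE vM21 (GRCm38), gene positions from a RefSeq gene annotation, and promoters from RefSeq GRCm38.p6. Reads of near-identical copies may be split between symbols. A few genes are not reported here by name.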

Additional observations from a re-analysis of the deposited data

Results flagged for a closer look

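In groups of 5 libraries, 2 values stood apart from the others of their group by Dixon's test, out of 188 groups screened over 42 named members and the summed levels (critical value 0.71); chance flags about 1 in 20 groups. Rps29, a short small subunit gene, had 927 FPKM in Pembrolizumab 2, against 216 to 401 FPKM in the other Pembrolizumab libraries. Rps4x had 934 FPKM in ABL503 1, against 849.8 to 868 FPKM in the other ABL503 libraries.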

How the results depend on the processing

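In Combination against Control 7 ribosomal protein genes passed. The count was 3 without a filter, with median centring, with only the groups compared, and with Control 1 and ABL503 3 left out. It was 17 with equal sums, 23 with quantile normalization, 15 at an adjusted p under 0.1, 1 with the antigen-presenting covariate and 16 with the short-gene covariate, which was chosen after seeing the data. The share of all tested genes passing under each of these settings is not given beside these counts. The count ran from 3 to 15 with 1 library left out. That share is also not given for this range or for the other comparisons below. The medians ran from -0.28 to -0.18 (large subunit) and -0.30 to -0.19 (small subunit) with 1 library left out. In Combination against Pembrolizumab 0 passed by limma (32 at an unadjusted p under 0.05), against 2 with array weights, 3 at an adjusted p under 0.1 and 0 to 4 with 1 library left out. In ABL503 against Pembrolizumab 0 passed by limma (14 at an unadjusted p under 0.05), against 1 with array weights, 1 at an adjusted p under 0.1 and 0 to 1 with 1 library left out. The large subunit median of the interaction was -0.14, against 0.036 with the short-gene covariate. No interaction could be computed from only the groups compared.

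Some members changed sign, none of which passed. In Combination against Control Rpl24 was at 0.021 with median centring, 0.0044 with Control 1 and ABL503 3 left out, 0.013 with the antigen-presenting covariate, and from -0.069 to 0.025 with 1 library left out, above 0 without Control 1 or 2 or Combination 1 or 3. Rpl7 was at 0.0084 with median centring and from -0.064 to 0.0051 with 1 library left out. Rpl22 was at 0.0069 with Control 1 and ABL503 3 left out, 0.13 with the antigen-presenting covariate, which put Rpl39 at 0.049, and from -0.16 to 0.0069 with 1 library left out. In Pembrolizumab against Control Rpl7a was at -0.011 with quantile normalization, and Rpl24 at -0.0031 with the short-gene covariate. The cause was not tested.

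With the replicate number as a block 7 genes passed in Combination against Control, 6 of them shared with the fit without the block, and 0 in the other comparisons by limma. Same-numbered libraries did not deviate together (30 pairs, median r 0.03, from -0.15 to 0.11). Differently numbered libraries of different groups had a median r of -0.0016 (120 pairs). These values show no shared deviation, and do not settle whether the numbers pair the samples. The depth is unknown, and no limit from it can be given.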

Other observations

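Several ribosomal proteins have a second gene for a near-identical or related protein. Rpl22l1, the paralogue of Rpl22, was the more abundant of the pair in these cells: it had 179.8 ± 14.1 FPKM in the Combination, 206 ± 32.9 with ABL503, 228 ± 36.0 with Pembrolizumab and 232 ± 27.2 in Control (SD, n = 5 each), while Rpl22 averaged 38.0, 38.7, 44.1 and 40.3 FPKM. The ratio of Rpl22l1 to Rpl22 lay between 4.05 and 7.32 in the 20 libraries, with group medians of 4.95 in the Combination, 5.59 with ABL503, 5.02 with Pembrolizumab and 5.80 in Control. In mouse, Rpl22 is known for its need in alpha-beta T-cell development. Rpl22l1 was just outside the threshold in Combination against Control (log2 change -0.36, SE 0.12, limma adjusted p = 0.0501).

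Rps27l had 169 ± 54.1 FPKM in the Combination, 201 ± 43.8 with ABL503, 192 ± 45.5 with Pembrolizumab and 164 ± 11.4 in Control. Its ratio to Rps27 had medians of 0.192, 0.164, 0.169 and 0.109 in the same order, with Combination libraries from 0.136 to 0.265 and Control libraries from 0.0674 to 0.184. Rpl36al was more abundant than Rpl36a, with median ratios of 2.29 in the Combination, 1.96 with ABL503, 2.11 with Pembrolizumab and 1.82 in Control, and overlapping ranges. Rpl39l, Rpl3l and Rps4l averaged at most 7.47 FPKM in any group, and Rpl10l was listed at 0 in all 20 libraries. These ratios were not tested, and reads that fit both copies could be counted for either.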
